A study of Mus musculus with 6 samples.

Results

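Axon guidance ligands and receptors were examined in mouse C2C12 myoblasts that overexpressed ChREBP-beta, a glucose-responsive transcription factor. The genes were chosen by symbol: semaphorins of classes 3 to 7, plexins, neuropilins, ephrins, Eph receptors, Slits, Robos, netrins, the Unc5 genes, Dcc and Neo1. This gave 72 of the 22272 gene symbols in the deposited table, of which 35 encode ligands and 35 receptors. The remaining 2 were matched by name only: Unc50, a Golgi membrane protein gene, and Unc5cl, a gene for an UNC5C-like death-domain protein, neither of which is a netrin receptor. RNA was sequenced from 6 samples of C2C12, an established mouse myoblast line, all undifferentiated and taken at day 0. The 3 control samples carried green fluorescent protein (GFP) and have the genotype WT in the labels, and the 3 others have the genotype ChREBP-beta overexpression. The way in which the factor and GFP were introduced was not given in the sources used here. Nor do the labels say that replicates came from separate cultures, so a p-value reflects only how far these samples vary, which may be technical variation. Values per library are listed in the order of the replicate numbers.

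Guidance proteins steer growing axons and also act on migrating muscle precursors and blood vessels. Secreted or membrane-bound semaphorins signal through plexins, and most class 3 semaphorins need a neuropilin as the ligand-binding partner. Ephrins bind Eph receptor tyrosine kinases between touching cells and can signal back into the cell that carries them. Slits bind Robo receptors, and netrins attract through DCC and neogenin (Neo1) and repel through the UNC5 receptors.

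The deposited counts per library summed to between 17600238 and 19163834, so that 1 CPM (the unit of level used here, a count scaled to the TMM-adjusted library total) stood for 18.3 counts on average. Mlxipl, which encodes ChREBP, was read at 0.576, 0.719 and 0.501 CPM with GFP and 222, 215 and 220.0 CPM with ChREBP-beta, so that all 6 libraries matched their labels, although gene counts do not separate the beta isoform. The myoblast markers summed to 673 to 701 CPM with GFP and 355 to 364 CPM with ChREBP-beta, and all 7 tested markers were lower, among them the myogenic regulator Myod1 at 30.8 and 1.23 CPM. Of the 8 neuron markers, Rbfox3 was at 0 in every library and Snap25 and Elavl4 had at most 4 counts in a library. The neuron list summed to 148 to 154 CPM with GFP and 36.5 to 42.3 CPM with ChREBP-beta, mostly from Stmn2, with 4 of its 5 tested members lower and Tubb3 higher. Markers of glia (Sox10 and Foxd3 at 0 in every library, 2 of 2 tested not called), endothelium (1 of 4 tested higher) and macrophages (3 of 3 not called) summed to at most 10.5 CPM in any library. Epithelial markers summed to 15.4 to 18.4 CPM with GFP and 25.4 to 26.7 CPM with ChREBP-beta, with 1 of 4 tested, Krt14, higher. Lung markers followed a single library, with 2.30 CPM in GFP replicate 1 and 76.6 to 151 CPM in the 5 other libraries. Liver markers summed to 0.628, 1.11 and 34.3 CPM with GFP and 28.45, 22.2 and 20.8 CPM with ChREBP-beta. They were thus low in GFP replicates 1 and 2 and in no ChREBP-beta library. Of the 8 tested lung markers Ager was called higher, and none of the 7 liver and 3 blood markers tested was called. Blood markers summed to 3.35 to 11.0 CPM with GFP and 5.55 to 9.90 CPM with ChREBP-beta. The part of these markers in the results was not tested. No call of a guidance gene changed when the lung, liver and blood markers were removed before the fit. This removal leaves the counts of the guidance genes as they were, so it cannot show whether RNA of such tissues added to them. In bulk RNA, fewer cells of a type and less RNA per cell cannot be told apart.

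Of the 72 genes, 52 had enough counts to be tested, 14 were called higher and 24 lower with ChREBP-beta (edgeR's quasi-likelihood F test with Benjamini-Hochberg adjustment over 12166 genes, adjusted p under 0.05). Among all tested genes 58.7% were called, 29.5% higher and 29.3% lower, against 73.1% of the tested guidance genes. The near-even split over all genes depended on the scaling: 3166 were higher and 4005 lower with upper-quartile scaling, and 2989 and 4166 with library totals. The guidance genes gave 14 higher and 25 lower under both. Changes of at least 2-fold were called for 23 guidance genes, 44.2% of those tested, where the share over all tested genes was 11.5%. Of these, 8 were higher (background 4.06%) and 15 lower (background 7.42%). Changes of at least 4-fold were called for 10 genes (background 4.4%), 5 higher (background 1.79%) and 5 lower (background 2.61%). The median size of the log2 fold change was 0.73 over the tested guidance genes and 0.23 over all tested genes, and the size was 1.16 over the 30 tested ligands and 0.60 over the 21 tested receptors, a difference that was not tested. With its sign, the median was -0.23 over the tested guidance genes and -0.00 over all tested genes. The groups did not overlap for 39 of the 52 (background 63.2%). Plxna4, Robo2, Sema3d, Sema4f, Sema6a and Sema6c lay under the filter's cutoff of 0.549 CPM (before TMM scaling) in every library of 1 group. These 6 passed through the other group alone and so had to differ, and their p-values carry little weight. Plxna4, Sema3d and Sema4f are also among the 10 genes with changes of at least 4-fold. Of the 46 other tested genes, 12 were called higher and 20 lower, and 17 changed at least 2-fold.

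**Figure D1:**
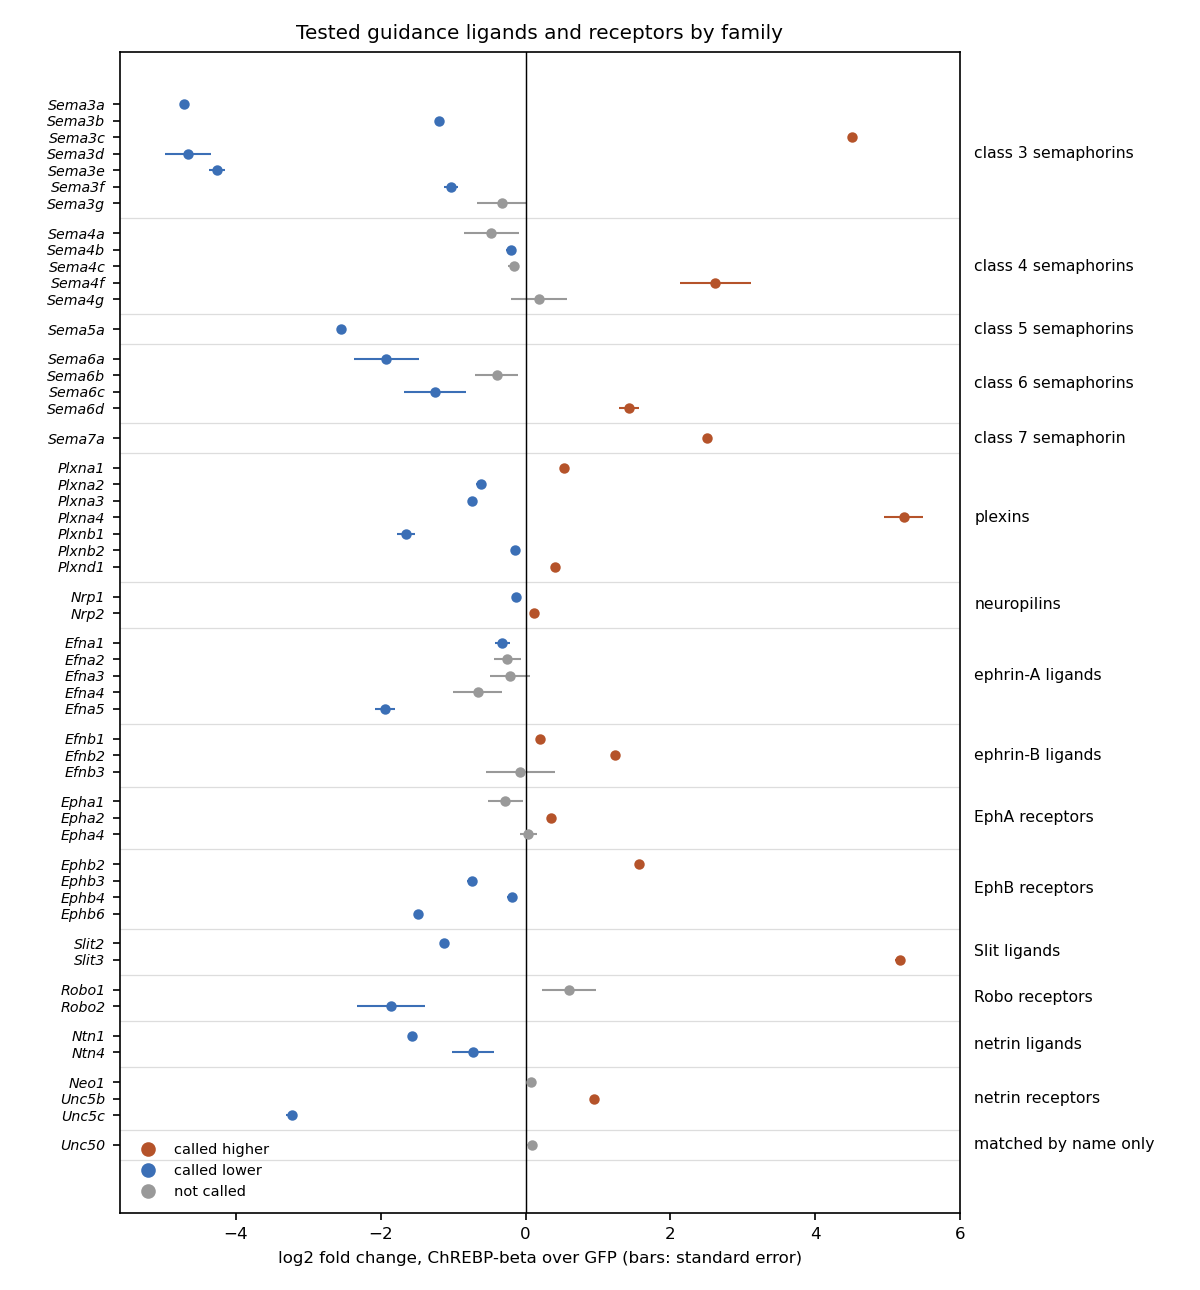
Log2 fold change (ChREBP-beta over GFP, with standard error) of the 52 tested genes, grouped by family, with called genes in colour. Most families hold members on both sides of 0, and the longest distances are those of Plxna4 (5.22), Slit3 (5.17) and Sema3c (4.51) to the right and of Sema3a (-4.71), Sema3d (-4.66) and Sema3e (-4.26) to the left.

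The secreted class 3 semaphorins held 4 of the 10 changes of at least 4-fold, and Sema3c went against its relatives. These 4 include Sema3d, which passed the filter through the GFP group alone. Of the 7 members, all tested, 5 were lower, 1 was higher and 1 was not called (background 58.7% called). Sema3c (ENSMUSG00000028780.13; chromosome 5, 17574281 to 17730268, plus strand, GRCm38), which acts through both neuropilins and is known for its part in heart outflow development, had 6.12, 6.53 and 7.08 CPM with GFP and 149, 149 and 149.6 CPM with ChREBP-beta. All ChREBP-beta libraries thus lay far above all GFP libraries, and the means of 6.58 ± 0.479 and 149 ± 0.347 CPM (SD, n = 3) corresponded to a 22.7-fold rise (log2 fold change 4.51, SE 0.058, edgeR adjusted p = 2.24e-26). Sema3a (ENSMUSG00000028883.17; chromosome 5, 13125414 to 13602565, plus strand), the classic growth-cone collapsing semaphorin, which satellite cells also secrete, moved the other way: it had 126, 121 and 125 CPM with GFP and 4.79, 4.41 and 4.97 CPM with ChREBP-beta. Its fall was 26.2-fold (log2 fold change -4.71, SE 0.066, edgeR adjusted p = 7.31e-26), with no overlap of the groups.

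Sema3e (ENSMUSG00000063531.7; chromosome 5, 14025276 to 14256689, plus strand) binds plexin-D1 directly, without a neuropilin. Its libraries had 44.5, 46.8 and 51.4 CPM with GFP and 2.83, 2.02 and 2.60 CPM with ChREBP-beta, and it was 19.1-fold lower (edgeR adjusted p = 8.91e-21). Sema3d (ENSMUSG00000040254.11; chromosome 5, 12383385 to 12588948, plus strand) had 4.97, 6.36 and 7.30 CPM with GFP and 0.218, 0.213 and 0.289 CPM with ChREBP-beta, the latter from 4, 4 and 5 counts, and was 25.3-fold lower (edgeR adjusted p = 6.56e-12). Both genes were low in every ChREBP-beta library and separated from every GFP library. Sema3d passed the filter through the GFP group alone and so had to differ. Sema3b had 60.4, 61.3 and 64.7 CPM with GFP against 27.6, 28.1 and 26.0 CPM with ChREBP-beta, and Sema3f, a ligand that prefers neuropilin-2, had 20.8, 26.8 and 26.2 against 11.1, 13.2 and 11.7 CPM. These falls of 2.28-fold and 2.05-fold were smaller than those of Sema3a, Sema3d and Sema3e but again without overlap (edgeR adjusted p = 5.43e-15 and 4.03e-09). Sema3g stayed near 1 CPM in both groups (1.36 and 1.08 CPM, edgeR adjusted p = 0.424).

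**Figure D2:**
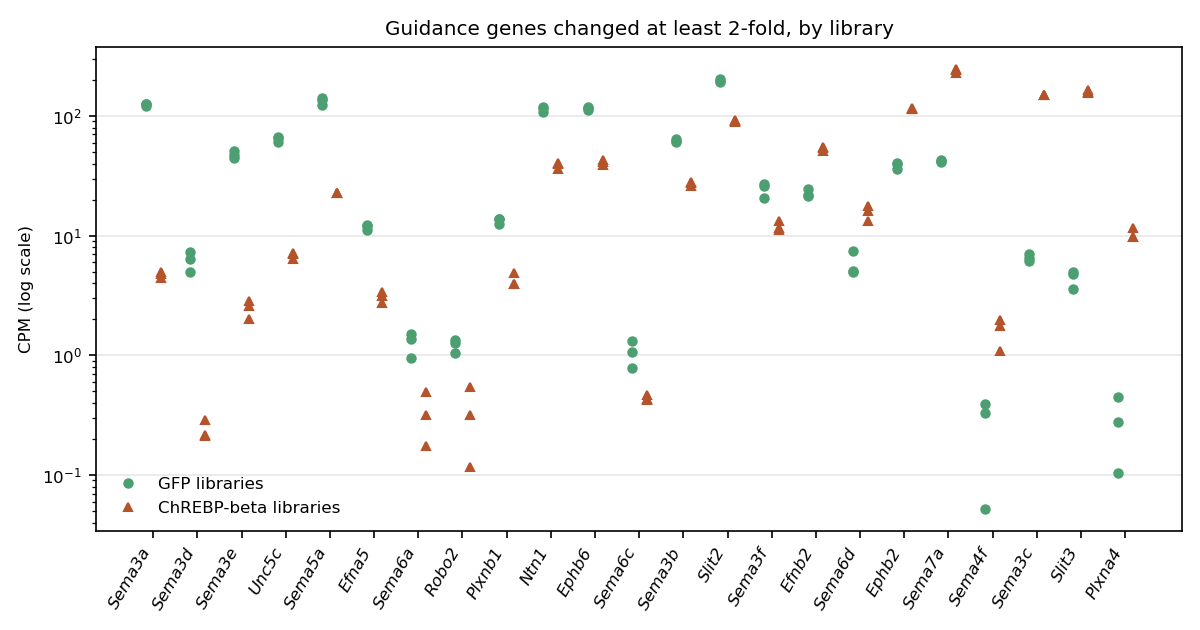
CPM on a log scale of the 23 guidance genes called with at least a 2-fold change, 1 point per library (circles GFP, triangles ChREBP-beta), ordered by log2 fold change. No gene has overlapping groups, and the genes at the right end, Slit3 and Plxna4, start from means of 4.44 and 0.276 CPM with GFP. Plxna4, Robo2, Sema3d, Sema4f, Sema6a and Sema6c passed the filter through 1 group alone and so had to differ.

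Set per length (CPM per kb of annotated exon, which allows levels of different genes to be compared), the class 3 family summed to 33.8 ± 1.50 with GFP and 29.8 ± 0.326 with ChREBP-beta (SD, n = 3), while its makeup changed. Sema3c made up 2.73% ± 0.0787 of that sum with GFP and 70.2% ± 0.866 with ChREBP-beta. Sema3a went from 26.5% ± 1.47 to 1.14% ± 0.0814, Sema3e from 15.2% ± 0.477 to 0.899% ± 0.158 and Sema3b from 38.5% ± 0.620 to 19.1% ± 0.587 of the family sum. Which member led with GFP depended on the length used: Sema3b led by the union of exons, and Sema3a, at 37.6% ± 1.79 against 32.5% ± 0.340, by the longest transcript. Sema3c led with ChREBP-beta by both lengths. The family sum also depended on the length: by the longest transcript it fell more, from 55.7 ± 2.08 with GFP to 40.1 ± 0.447 with ChREBP-beta.

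These 4 class 3 semaphorins with changes of at least 4-fold lie on the plus strand of 1 stretch of chromosome 5, in the order Sema3d, Sema3a, Sema3e and Sema3c, within 5.35 Mb. The first 3 fell and the last rose. Between the outer 2 the table lists 17 other genes, of which only 3 had enough counts to be tested. Cacna2d1, a calcium channel subunit gene, was 1.60-fold higher. Hgf, which encodes hepatocyte growth factor, was lower, at 38.7 and 15.2 CPM (log2 fold change -1.35, edgeR adjusted p = 1.15e-13), and Gm28710 was not called. The 3 tested neighbours changed less than these 4 semaphorins. The semaphorins were taken here because they changed at least 4-fold, so this difference follows from the choice and says nothing about the stretch.

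**Figure D3:**
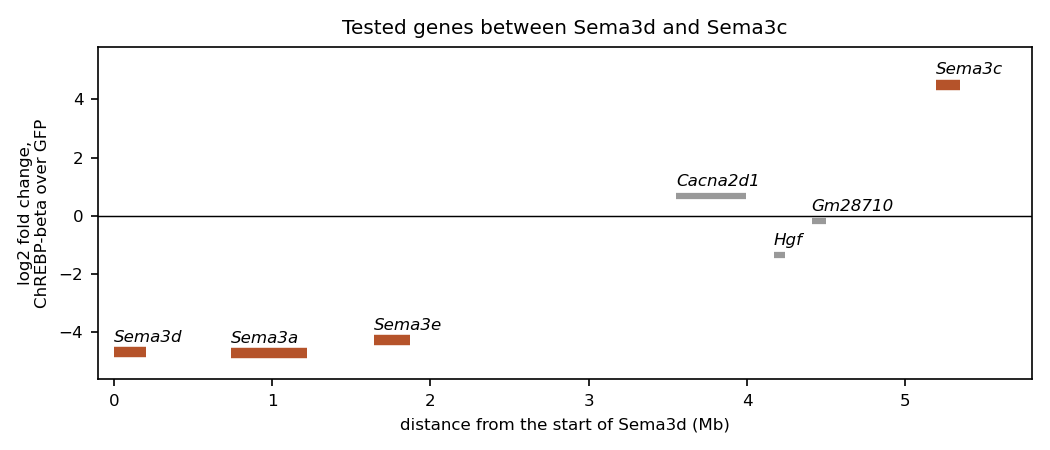
Log2 fold change of the 7 tested genes from Sema3d to Sema3c, drawn as bars from start to end of each gene against the distance from the start of Sema3d. Sema3d, Sema3a and Sema3e sit between -4.26 and -4.71, the 3 other genes between -1.35 and 0.68, and Sema3c at 4.51.

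ChREBP with its partner Mlx binds pairs of E-boxes, so the windows around the members' transcription start sites are shown for the short E-box CACGTG, which reads the same on both strands. RefSeq windows of 300 bases (250 before and 50 after a start, GRCm38.p6) were at hand for 62 of the 72 genes, 78 windows in all. The other 10 were Ntn1, Sema3b, Unc5d, Plxna4, Efnb3, Plxna1, Slit1, Sema3f, Dcc and Sema6a. The letters CACGTG stood in 5 windows of 5 genes, 6.41% of the members' windows, against 7.15% of all 32851 windows. Of these 5 genes 3 were called lower (Robo2, Sema3e and Sema4b), 1 higher (Sema6d) and 1 was not tested (Epha8). Of all tested guidance genes 26.9% were called higher and 46.2% lower, against 29.5% and 29.3% of all tested genes. Robo2 passed the filter through the GFP group alone, and the call of Sema4b was lost with DESeq2. The full carbohydrate response element, a pair of E-boxes with a short spacer, was in none of the 78 windows and in 0.119% of all windows. The E-box of myogenic factors, CAGCTG, also its own reverse complement and not overlapping CACGTG, was in 15.4% of the members' windows and 16.3% of all. It stood in windows of 12 genes, of which 1 was called higher, 3 lower and 2 in neither direction, and 6 were not tested. Of the 3 lower genes, Robo2 and Sema6c passed the filter through the GFP group alone. A link between either motif and a direction of change was not tested. The 5 stretches with CACGTG are given here 5′ to 3′ on the gene's strand, with the E-box in capitals. It lies 24 bases after the start in Sema3e and before the start in the others, by 148 bases in Epha8, 102 in Sema4b, 23 in Sema6d and 18 in Robo2. Sema4b, Sema6d and Robo2 have more than 1 RefSeq start, and the start meant is that of the only window with CACGTG. For Robo2 this start, at 75447293, lies outside the gene span used here (73891839 to 74411825).
Sema3e (chr5:14025287-14025316, plus strand): gatgcggcgaggCACGTGggctggagacac
Sema6d (chr2:124089934-124089963, plus strand): cgagcgcagaagCACGTGggctaagggggt
Sema4b (chr7:80198474-80198503, plus strand): ggtgcggcggccCACGTGaccaccttccct
Robo2 (chr16:75447294-75447323, minus strand): tcaggctcgcctCACGTGgggaggagggag
Epha8 (chr4:136956947-136956976, minus strand): ggcgggcgtgtgCACGTGctgccggccggt
A letter match describes the window and shows no binding.

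The 250 bases before the RefSeq start are shown for Sema3d and Sema3e, which fell together, and for Sema7a, the most abundant semaphorin per length with ChREBP-beta. None holds CACGTG, and Sema7a holds 1 CAGCTG, in capitals. Their GC content was 46.8% for Sema3d, 48.0% for Sema3e and 66.4% for Sema7a.
Sema3d (chr5:12382916-12383165, plus strand): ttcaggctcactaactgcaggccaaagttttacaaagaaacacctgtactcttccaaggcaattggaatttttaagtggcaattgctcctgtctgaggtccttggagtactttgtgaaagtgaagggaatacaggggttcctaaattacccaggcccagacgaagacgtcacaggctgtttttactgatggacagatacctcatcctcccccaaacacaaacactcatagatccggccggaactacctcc
Sema3e (chr5:14025026-14025275, plus strand): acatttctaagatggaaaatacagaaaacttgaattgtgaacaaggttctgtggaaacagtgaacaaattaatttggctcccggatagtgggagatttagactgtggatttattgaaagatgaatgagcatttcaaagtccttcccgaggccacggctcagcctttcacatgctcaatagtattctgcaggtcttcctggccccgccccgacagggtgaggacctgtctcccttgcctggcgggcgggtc
Sema7a (chr9:57939862-57940111, plus strand): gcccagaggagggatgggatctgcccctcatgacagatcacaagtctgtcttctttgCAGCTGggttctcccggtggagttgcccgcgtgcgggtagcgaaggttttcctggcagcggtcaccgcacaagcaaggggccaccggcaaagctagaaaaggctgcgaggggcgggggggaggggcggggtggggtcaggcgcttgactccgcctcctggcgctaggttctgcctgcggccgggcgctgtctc

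Sema7a, the only class 7 semaphorin, is held at the membrane by a lipid anchor and signals through beta-1 integrins and plexin-C1. Its level was 42.7, 42.3 and 41.3 CPM with GFP and 226, 240.1 and 247 CPM with ChREBP-beta, a 5.65-fold rise without overlap (log2 fold change 2.50, SE 0.041, edgeR adjusted p = 1.55e-24). Per length it went from 12.8 to 72.1 CPM per kb, above every other semaphorin with ChREBP-beta. Of its receptors, Plxnc1 had at most 8 counts in any library and was not tested, while Itgb1, the beta-1 integrin gene, stood at 861 and 1170.0 CPM and was 1.36-fold higher. Sema5a, a transmembrane semaphorin with thrombospondin repeats, went down: its values were 124, 136 and 142 CPM with GFP and 22.7, 22.8 and 22.8 CPM with ChREBP-beta, a 5.88-fold fall (edgeR adjusted p = 2.91e-22). Sema5b had 10, 8 and 9 counts with GFP and 3, 2 and 1 with ChREBP-beta, too few to be tested, also without overlap. With no filter on counts it was called lower (log2 fold change -2.08, SE 0.866, edgeR adjusted p = 0.0379), the only untested member so called.

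The transmembrane class 6 semaphorins, ligands of A-type plexins, split. Sema6d, which binds plexin-A1, had 5.02, 4.98 and 7.41 CPM with GFP and 13.3, 16.0 and 17.6 CPM with ChREBP-beta and rose 2.70-fold (edgeR adjusted p = 4.05e-09). Sema6a had 1.36, 1.49 and 0.947 CPM with GFP and 0.490, 0.319 and 0.173 CPM with ChREBP-beta and fell 3.79-fold (edgeR adjusted p = 8.48e-04). For Sema6c the values were 0.785, 1.33 and 1.06 CPM with GFP and 0.435, 0.425 and 0.463 CPM with ChREBP-beta, a 2.37-fold fall (edgeR adjusted p = 0.0157) that was not called without GFP replicate 2 (log2 fold change -1.04, adjusted p = 0.0932), without ChREBP-beta replicate 1 (adjusted p = 0.0501) or without ChREBP-beta replicate 2 (adjusted p = 0.0520). The groups were apart for all 3 genes, but Sema6a and Sema6c rest on few counts. Both passed the filter through the GFP group alone and so had to differ, and their p-values carry little weight. Sema6b was not called (2.62 and 1.97 CPM). Sema6d made up 36.8% ± 11.5 of the class 6 sum per length with GFP, next to 42.2% ± 10.7 for Sema6b, and 70.8% ± 6.13 with ChREBP-beta. By the longest transcript Sema6d led with GFP as well, at 45.7% ± 12.2 against 34.6% ± 10.4 for Sema6b.

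Class 4 semaphorins changed little, apart from a low member. Sema4f had 0.0523, 0.332 and 0.390 CPM with GFP (1, 6 and 7 counts) and 1.09, 1.75 and 1.97 CPM with ChREBP-beta and was 6.14-fold higher (log2 fold change 2.62, SE 0.492, edgeR adjusted p = 6.92e-05). It passed the filter through the ChREBP-beta group alone and so had to differ, and its p-value carries little weight. Sema4b and Sema4c, the latter a plexin-B2 ligand, carried nearly all of the class per length. Sema4b had 30.2, 32.6 and 29.6 CPM with GFP and 24.9, 26.6 and 29.1 CPM with ChREBP-beta, a 1.15-fold fall (edgeR adjusted p = 0.0199) that was not called without GFP replicate 2 or without ChREBP-beta replicate 1 or 2 (adjusted p = 0.127, 0.124 and 0.0601), nor by DESeq2 (adjusted p = 0.0560). Sema4c stood at 24.5 and 22.0 CPM and was not called (edgeR adjusted p = 0.0775), but it was called lower without GFP replicate 1 (adjusted p = 0.0327), with upper-quartile scaling (adjusted p = 0.035) and with library totals (adjusted p = 0.025). Sema4a and Sema4g were near 1 CPM and not called, and Sema4d, the plexin-B1 ligand, was not tested, with at most 16 counts in a library.

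On the receiving side, all 7 tested plexins and both neuropilins were called, 4 higher and 5 lower, mostly by less than 2-fold, where 58.7% of all tested genes were called. Plxna4, a receptor for class 3 and class 6 semaphorins best known from sensory and sympathetic neurons, stood out with 0.105, 0.277 and 0.446 CPM with GFP (2, 5 and 8 counts) and 9.74, 11.7 and 9.65 CPM with ChREBP-beta. The rise was 37.2-fold (log2 fold change 5.22, SE 0.271, edgeR adjusted p = 2.40e-14), without overlap. Plxna4, counted above among the called plexins, passed the filter through the ChREBP-beta group alone. It therefore had to differ, and its p-value carries little weight. It remained a minor plexin per length, at 0.654% ± 0.0679 of the plexin sum with ChREBP-beta. Plxnb1, the Sema4d receptor, fell 3.14-fold, from 13.8, 13.8 and 12.6 to 4.90, 3.93 and 3.93 CPM (edgeR adjusted p = 6.76e-11).

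The most abundant plexin per length was Plxnb2, at 56.3 and 51.0 CPM per kb. It had 425, 439.6 and 440.3 CPM with GFP and 389, 402 and 389 CPM with ChREBP-beta, a small 1.10-fold fall (edgeR adjusted p = 1.00e-04). Plxna1, the next, rose 1.44-fold from 223 to 320.5 CPM, and Plxnd1, the receptor for Sema3e, rose 1.33-fold from 102 to 136 CPM, while its ligand fell 19.1-fold. Of the other A-type plexins, Plxna4 rose as given above, while Plxna2 and Plxna3 were lower, by 1.54-fold and 1.67-fold. The plexins together summed to 106 ± 2.36 CPM per kb with GFP and 112 ± 0.823 with ChREBP-beta (SD, n = 3). Plxnb3 and Plxnc1 were not tested.

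The neuropilins, which bind class 3 semaphorins and VEGF, changed little. Nrp2 led per length (31.7 and 34.3 CPM per kb) and had 370.5, 370.1 and 384 CPM with GFP and 394, 411 and 414 CPM with ChREBP-beta, a 1.08-fold rise (edgeR adjusted p = 0.00141). Nrp1 was 1.09-fold lower, at 64.9 and 59.3 CPM (edgeR adjusted p = 0.0196), a call lost without GFP replicate 3 or ChREBP-beta replicate 1 (adjusted p = 0.104 and 0.0792) and with DESeq2 (adjusted p = 0.0610). The class 3 ligands thus changed by up to 26.2-fold, whereas the neuropilins changed by at most 1.09-fold. Plxna4 and Plxnd1, plexins that also receive class 3 semaphorins, changed more than the neuropilins, as given above.

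Co-receptors and other partners of semaphorins and plexins, a list of 22 genes, had 12 tested members, of which 5 were higher, 4 lower and 3 not called, so that 9 of 12 were called against 58.7% of all tested genes. The 9 include Plxdc1, which passed the filter through the GFP group alone. L1cam, a cell adhesion molecule that pairs with neuropilin-1 in Sema3a signalling, rose 7.68-fold from 2.51 to 19.3 CPM (edgeR adjusted p = 8.89e-16). Flt1, a VEGF receptor, fell 3.33-fold and Met, the HGF receptor, which associates with B-type plexins, 2.18-fold (edgeR adjusted p = 4.06e-12 and 3.09e-15). Itga1, an integrin subunit that pairs with beta-1, was 1.80-fold higher.

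Among the ephrins, the cell-bound ligands of Eph receptors, 2 of 8 were higher, 2 lower and 4 not called, a share called no higher than the 58.7% of all tested genes. Efna5, a lipid-anchored ephrin, had 11.1, 12.1 and 12.2 CPM with GFP and 3.10, 2.71 and 3.41 CPM with ChREBP-beta and fell 3.83-fold (log2 fold change -1.94, SE 0.143, edgeR adjusted p = 2.26e-11). Efnb2, the transmembrane ephrin that marks arterial endothelium, went from 21.8, 21.5 and 24.5 CPM with GFP to 50.9, 54.0 and 55.5 CPM with ChREBP-beta and rose 2.37-fold (edgeR adjusted p = 2.23e-14). The groups were apart for both genes. Efnb1 was the most abundant ephrin per length, at 13.3 and 15.3 CPM per kb. It had 43.8, 45.6 and 48.6 CPM with GFP and 52.0, 49.8 and 56.3 CPM with ChREBP-beta and was 1.15-fold higher (edgeR adjusted p = 0.00572), but not called without ChREBP-beta replicate 3 (adjusted p = 0.0540). Efna1 led the A-type ephrins per length and had 12.7, 12.9 and 13.0 CPM with GFP and 8.92, 10.5 and 11.4 CPM with ChREBP-beta, 1.25-fold lower (edgeR adjusted p = 0.0129), which was lost without ChREBP-beta replicate 1 (log2 fold change -0.22, adjusted p = 0.0863). Efna2, Efna3, Efna4 and Efnb3 had means of at most 4.89 CPM and were not called, though Efna4 was called lower without GFP replicate 3 or without ChREBP-beta replicate 1 (adjusted p = 0.0337 and 0.0284).

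Of the 7 tested Eph receptors, 2 were higher, 3 lower and 2 not called (background 58.7% called). Changes of at least 2-fold were called for 2 of the 7 (background 11.5%), in opposite directions within the B class. Ephb2, a receptor for B-type ephrins, rose 2.97-fold, from 36.0, 40.3 and 39.9 CPM with GFP to 117, 114 and 115 CPM with ChREBP-beta (log2 fold change 1.57, SE 0.047, edgeR adjusted p = 2.53e-19). Ephb6, whose kinase domain is inactive, fell 2.79-fold, from 112, 118 and 116 to 41.6, 42.9 and 39.0 CPM (log2 fold change -1.48, SE 0.046, edgeR adjusted p = 5.80e-19). In the EphB sum per length, Ephb6 thus went from 61.4% ± 0.981 to 34.0% ± 1.60 and Ephb2 from 6.19% ± 0.256 to 28.5% ± 0.521, and the sum itself from 49.7 ± 1.14 to 32.1 ± 0.211 CPM per kb (SD, n = 3). Ephb3 was 1.67-fold lower, and Ephb4, the Efnb2 receptor of veins, 1.14-fold lower at 39.4 and 34.5 CPM (edgeR adjusted p = 0.0142), not called without GFP replicate 1 or without ChREBP-beta replicate 1 (adjusted p = 0.0809 and 0.112). Ephb4 overlaps Zan on the opposite strand, and reads from the stretch they share cannot be told apart here because the strand setting is not known.

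Of the A class, only Epha2, Epha4 and Epha1 were tested. Epha2, a receptor that epithelial and many cultured cells carry, made up 90.6% ± 0.857 and 92.8% ± 0.473 of the EphA sum per length. It had 94.9, 86.3 and 94.6 CPM with GFP and 115, 119.7 and 117 CPM with ChREBP-beta, 1.28-fold higher (edgeR adjusted p = 5.52e-08). Epha4, which also binds B-type ephrins, stood at 9.52 and 9.77 CPM and was not called (log2 fold change 0.04, SE 0.115, edgeR adjusted p = 0.805). Epha1, which overlaps Zyx on the opposite strand, was not called either (3.02 and 2.49 CPM). Epha5 and Epha6 had no count in any library, and Epha3, Epha7, Epha8, Epha10 and Ephb1 had at most 10 counts in a library. Epha8 had 4, 1 and 5 counts with GFP and 10, 8 and 6 with ChREBP-beta.

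**Figure D4:**
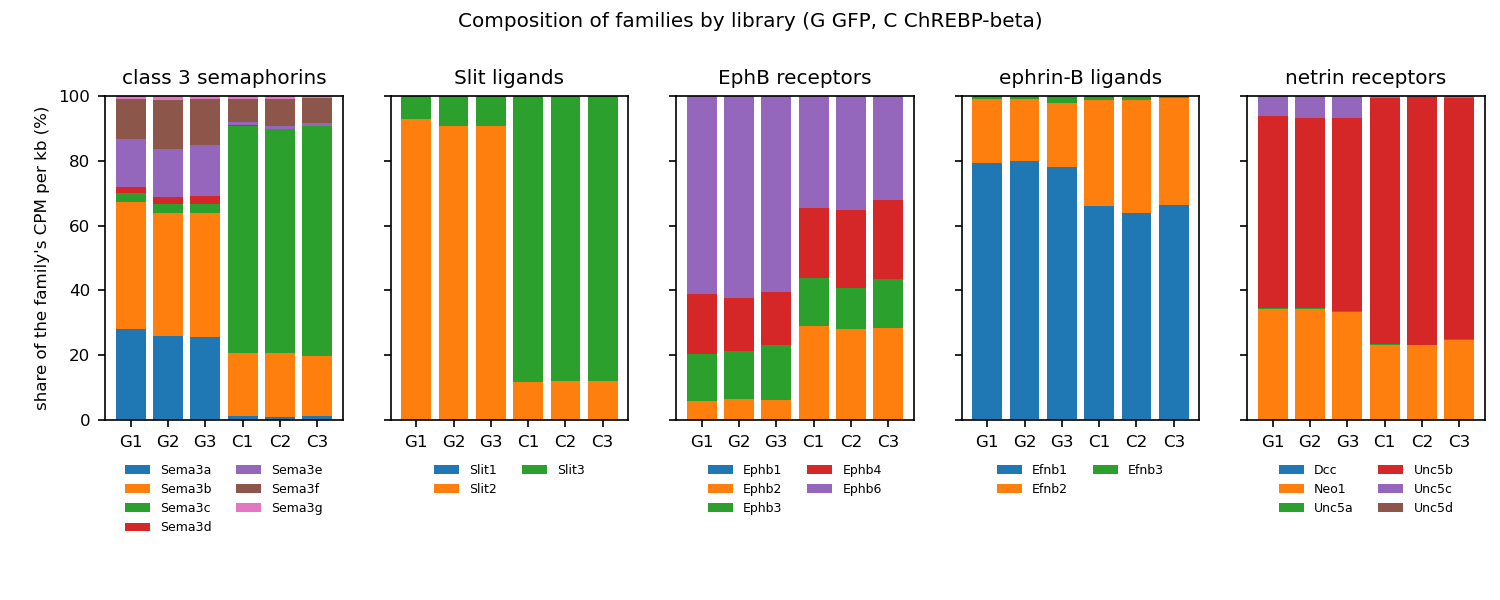
Share of each gene in its family's summed CPM per kb of exon (%), 1 bar per library (G1 to G3 GFP, C1 to C3 ChREBP-beta), for 5 families. Sema3c takes 70.2% ± 0.866 of the class 3 bars and Slit3 88.0% ± 0.137 of the Slit bars with ChREBP-beta (SD, n = 3), against 2.73% ± 0.0787 and 8.59% ± 1.21 with GFP.

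The Slits, large secreted ligands of Robo receptors, exchanged their order. Slit3 (ENSMUSG00000056427.10; chromosome 11, 35121224 to 35708507, plus strand) had 3.56, 4.81 and 4.96 CPM with GFP and 164, 157 and 157 CPM with ChREBP-beta, with means of 4.44 ± 0.770 and 159 ± 4.03 CPM (SD, n = 3). The rise was 35.9-fold (log2 fold change 5.17, SE 0.069, edgeR adjusted p = 3.38e-26). Slit2 (ENSMUSG00000031558.15; chromosome 5, 47983138 to 48307733, plus strand) had 192, 197 and 203 CPM with GFP and 91.9, 89.2 and 89.9 CPM with ChREBP-beta and fell 2.18-fold (edgeR adjusted p = 6.06e-19). No library of either group overlapped the other for these genes. Slit1, the most neural of the 3, had at most 2 counts per library. Per length Slit2 made up 91.3% ± 1.27 of the Slit sum with GFP and Slit3 88.0% ± 0.137 with ChREBP-beta, and the sum went from 8.50 ± 0.329 to 29.8 ± 0.716 CPM per kb (SD, n = 3). With the longest transcript as the length, the sum went from 20.7 ± 0.659 to 39.5 ± 0.905 and Slit3 held 77.0% ± 0.213 with ChREBP-beta.

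Robo receptors were scarce in these cells. Robo2 had 1.05, 1.27 and 1.34 CPM with GFP and 0.544, 0.319 and 0.116 CPM with ChREBP-beta (10, 6 and 2 counts) and fell 3.64-fold (log2 fold change -1.86, SE 0.470, edgeR adjusted p = 0.00152), but it was tested only because the GFP libraries passed the filter. Robo1 had 1.73, 0.774 and 0.836 CPM with GFP and 1.96, 1.12 and 2.02 CPM with ChREBP-beta, with overlapping groups, and was not called (edgeR adjusted p = 0.170), but without GFP replicate 1, its highest GFP library, it was called higher (log2 fold change 1.07, adjusted p = 0.0331). Robo3 and Robo4, the endothelial Robo, had at most 4 counts per library. The 4 Robo genes together summed to 0.159 ± 0.00792 CPM per kb with GFP and 0.146 ± 0.0177 with ChREBP-beta (SD, n = 3), far below the Slit sums.

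Netrin-1 and 1 of its repulsive receptors were lower, while another was higher. Ntn1 (ENSMUSG00000020902.12; chromosome 11, 68209364 to 68400823, minus strand), the founding axon attractant, had 119, 108 and 116 CPM with GFP and 39.3, 40.4 and 36.1 CPM with ChREBP-beta, a 2.96-fold fall (log2 fold change -1.57, SE 0.050, edgeR adjusted p = 1.03e-18). Unc5c (ENSMUSG00000059921.15; chromosome 3, 141465216 to 141834924, plus strand) had 60.6, 66.9 and 65.4 CPM with GFP and 7.07, 6.43 and 7.11 CPM with ChREBP-beta and fell 9.35-fold (log2 fold change -3.23, SE 0.076, edgeR adjusted p = 2.25e-21). Unc5b, the UNC5 receptor of blood vessels, rose 1.93-fold, from 189, 194 and 192 to 375, 369 and 364 CPM (edgeR adjusted p = 5.44e-19). The groups were apart for all 3. Neo1, which encodes neogenin, a receptor of netrins and repulsive guidance molecules that promotes myoblast differentiation, stood at 153 and 161 CPM and was not called (edgeR adjusted p = 0.0842), although without ChREBP-beta replicate 2 it was (log2 fold change 0.10, adjusted p = 0.0371).

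Unc5b was the most abundant netrin receptor per length in both groups, at 59.3% ± 0.446 of the family sum with GFP and 75.8% ± 0.982 with ChREBP-beta, followed by Neo1. Dcc, the attractive netrin receptor of neurons, had no count in any library, and Unc5a and Unc5d had at most 15 counts in a library and were not tested. Ntn4, a laminin-related netrin of basement membranes, had 2.51, 1.88 and 3.23 CPM with GFP and 1.74, 1.65 and 1.21 CPM with ChREBP-beta. It was 1.65-fold lower (edgeR adjusted p = 0.0369), a call that was lost in 5 of the 6 fits without 1 library (adjusted p between 0.0515 and 0.196; it held without GFP replicate 2) and with DESeq2 (adjusted p = 0.0546). With the replicate number as a block, Ntn4 had an adjusted p of 0.0664. Ntn3 and Ntn5 were not tested, and Ntn3 overlaps Tbc1d24. Unc50, matched by name only, was not called (24.9 and 26.5 CPM), and Unc5cl had 1 count in all.

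Partners of netrins, Slits and repulsive guidance molecules, 22 genes, had 15 tested members, with 8 higher, 5 lower and 2 not called, so that 13 of 15 were called against 58.7% of all tested genes. The 13 include Flrt1, which passed the filter through the ChREBP-beta group alone. Rtn4r, the receptor for the myelin inhibitor Nogo, rose 8.21-fold from 2.67 to 21.9 CPM (edgeR adjusted p = 4.26e-16). Sdc1, a heparan sulfate proteoglycan of the syndecan family, whose sugar chains can bind Slits, rose 2.95-fold and Lrrc4c, the netrin-G1 ligand, 2.26-fold, while Bmpr1b, a BMP receptor, fell 2.77-fold (edgeR adjusted p = 3.98e-23, 1.90e-07 and 2.26e-12).

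Genes that guidance receptors act through inside the cell had a median size of the log2 fold change of 0.24. Of the 62 cytoplasmic effectors, 57 were tested, with 22 higher, 21 lower and 14 not called, and 3 were changed at least 2-fold (background 58.7% called, 11.5% at least 2-fold). Dpysl3, a collapsin response mediator protein of the Sema3a pathway, fell 2.43-fold from 304 to 125 CPM, Rnd1, a small GTPase that binds plexins, rose 2.12-fold, and Rnd3 and the kinase gene Pak3 fell 1.84-fold and 1.75-fold (edgeR adjusted p = 3.34e-20, 9.93e-08, 1.09e-16 and 2.29e-12). Of 17 proteases and phosphatases that act on guidance proteins, 14 were tested, with 6 higher, 3 lower and 5 not called, 9 of 14 called and thus near the background. Furin, the convertase that cleaves class 3 semaphorins, rose 1.50-fold, Adamts1, a secreted metalloprotease, 2.02-fold, and Ptpn1, a tyrosine phosphatase, 1.42-fold, whereas Pcsk6, another convertase, fell 2.07-fold. In all, 41 of the 98 tested partner genes were higher and 33 lower, together 75.5%, against the background of 58.7%, and 17 of the 98 (17.3%) changed at least 2-fold against 11.5%. Which direction was more frequent turned with the scaling: 38 were higher and 37 lower with upper-quartile scaling, and 35 and 38 with library totals. The median size of their log2 fold changes was 0.27, against 0.73 over the ligands and receptors, a difference that was not tested. Of the partners changed at least 2-fold, Flrt1 and Fes lay under the filter's cutoff in every GFP library and Plxdc1 in every ChREBP-beta library. These genes passed through the other group alone and so had to differ, here and in the counts of their own lists.

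**Figure D5:**
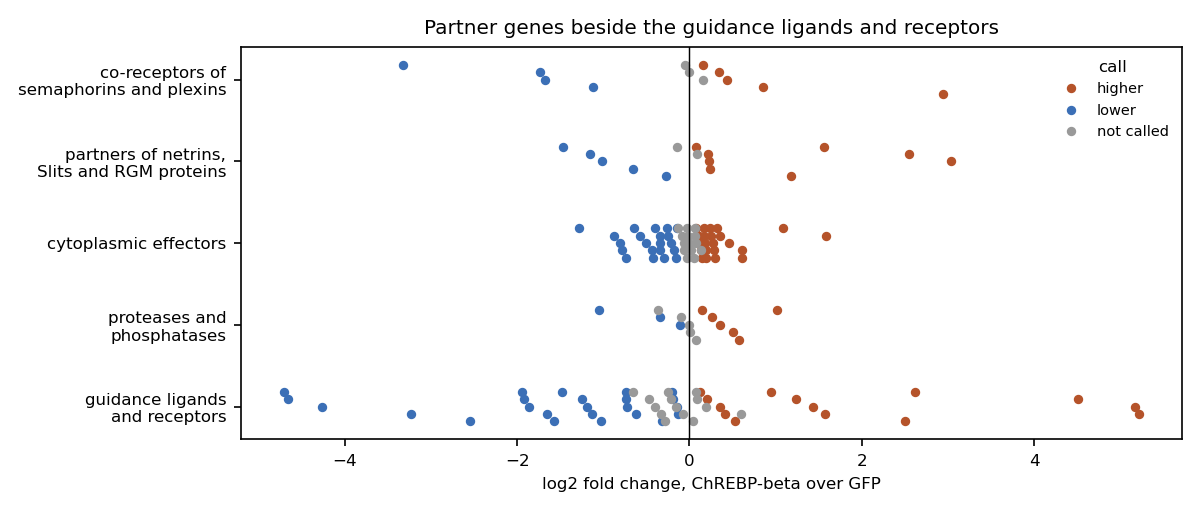
Log2 fold change of the tested partner genes in 4 lists, with the tested guidance ligands and receptors in the bottom row. Each point is a gene, coloured by its call and spread vertically for view, and the cytoplasmic effectors lie closer to 0 than the ligands and receptors.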

How the data were processed

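Libraries were grouped by their titles, 3 per group. The authors deposited estimated counts per gene symbol, not normalized, of which 7.74% were not whole numbers, with no such value at any of the 72 guidance genes. The tools listed, with no role given, are TopHat2 2.0.0, Bowtie2 2.0.0.5 and fastp, per the submitters' processing notes. Those notes name only a chicken assembly (GRCg6a), although the symbols are those of mouse genes. The mouse annotation, counting tool and strand setting were not given in the sources used here.

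Rows of 24 repeated symbols were summed and the estimated counts rounded to whole numbers for the count test. Genes passing filterByExpr (minimum count 10, minimum total 15) were scaled by TMM and tested with edgeR 4.0.16 (glmQLFit, glmQLFTest, two-sided, R 4.3.3), with Benjamini-Hochberg adjustment over 12166 genes. The standard error is the log2 fold change over the square root of F. The procedure was tested on simulated data in which far fewer genes changed than were called here. That simulation therefore does not test the scaling under changes as widespread as these. Lengths and positions are from GENCODE M21 (GRCm38), which may not be the authors' build, and promoter windows from RefSeq. No 2 replicates agreed within counting noise (chi-square per degree of freedom 2.15 to 3.96).

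Members of the family set, gene lists and tests were chosen with earlier results of these data known. Values in every library were given for called members with at least a 2-fold change and separated groups and for the member of highest CPM per kb in each family. Uncalled members with a mean of at least 5 CPM were named, as were up to 4 called genes per partner list with a mean of at least 5 CPM. Other genes were named after their values were seen. Results were recomputed with DESeq2 1.42.0, with limma-voom (limma 3.58.1), with upper-quartile, RLE and library-total scaling, with factors computed without Mlxipl and the top 10 genes, without a filter, with a filter of 5 mean CPM, and with the replicate number as a block, as well as with a minimum change of 1.2-fold (glmTreat), without 23 lung, liver and blood genes, and without each library in turn.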

Additional observations from a re-analysis of the deposited data

How the results depend on the processing

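Of the 52 tested guidance genes, 39 kept their call in each of the 17 alternatives that tested them, and none reversed. Members called higher numbered 13 to 15 and members called lower 19 to 24 over the fits that left out 1 library. They numbered 12 and 18 when a change had to exceed 1.2-fold, the alternative that moved the counts of all genes most, to 1510 higher and 1886 lower, from 3584 and 3561. The members no longer called there were Efnb1, Nrp2, Efna1, Ephb4, Nrp1, Ntn4, Plxnb2 and Sema4b. The replicate numbers did not pair the samples: deviations of same-numbered libraries correlated at -0.013, 0.004 and -0.041. With the replicate block, 14 members were higher and 23 lower (from 24), the call lost being that of Ntn4, and 3474 genes were higher and 3428 lower over the whole table. Shares per length moved with the length chosen. With the longest transcript in place of all exons, in GFP and ChREBP-beta libraries respectively, Unc5b held 54.3% and 73.6% of the netrin receptors, Efnb1 74.1% and 58.7% of the B-type ephrins, Ephb6 56.8% and 30.5% of the EphB receptors, Nrp2 75.8% and 78.8% of the neuropilins and Plxnb2 55.5% and 48.5% of the plexins. With GFP, Efna1 held 51.0%, Sema3b 32.5%, Sema4b 52.5% and Slit2 95.9% of their families, and with ChREBP-beta, Sema3c held 67.8%, Sema4c 41.9%, Sema6d 78.4% and Slit3 77.0%. At 18.3 counts per CPM, the 20 untested members had at most 16 counts per library. With no filter 69 members were tested, and Sema5b was the only one of the 20 to be called, lower (adjusted p = 0.0379).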
